A study of Mus musculus with 2 samples.

Results

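The CD8-transcript T cells described here are 76 cells of a droplet single-cell library of mouse liver cells sorted as CD45+Lin-CD122+CD49a+. They were chosen by their transcripts. Transcripts were counted as unique molecular identifiers (UMIs). A barcode had to show no fewer than 500 genes, with up to 10% of its UMIs mitochondrial. It then had to carry at least 1 UMI over the CD3 genes Cd3d, Cd3e and Cd3g, at least 1 UMI over the CD8 genes Cd8a and Cd8b1, and 0 UMIs over Tyrobp, Fcer1g and H2-Ab1. Tyrobp and Fcer1g encode signalling adaptors of NK and myeloid cells, H2-Ab1 encodes an MHC class II chain, and these 3 are called the exclusion genes below. Such cells made up 10.2% (95% interval 8.12 to 12.6) of the 745 CD3-transcript cells in that library, 6.09% of its 1248 cells past the filters, and 76 of the 4788 barcodes in both deposited libraries.

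Both libraries came from C57BL/6 mice aged 7 to 10 weeks, with 1 library per gate. The other gate, called LSM, took CD45+Lin-Sca-1+Mac-1+ liver cells. The labels do not state how many animals were pooled or which antibodies made up the lineage (Lin) cocktail. The CD8-transcript T cells are set against the other 669 CD3-transcript cells of the same library. They are also set against 396 of these that had no UMI of a CD8 or an exclusion gene, called the CD8-negative cells. The other 669 also include 48 cells with CD8 and exclusion UMIs and 225 cells with exclusion UMIs only, so they hold RNA that the rule kept out of the CD8-transcript T cells.

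CD8 is the co-receptor with which cytotoxic T cells bind MHC class I. It is made as an alpha-alpha dimer from Cd8a alone, or as an alpha-beta dimer from Cd8a and Cd8b1. CD122 is the receptor beta chain shared by interleukin-2 and interleukin-15, and CD49a is a collagen-binding integrin. In mouse liver this surface pair is known from innate lymphocytes, and each molecule is also known from memory or tissue-resident CD8 T cells. Effector CD8 T cells kill with granzymes, and T cells leave tissue for the blood and lymph with the help of the sphingosine receptor S1pr1.

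The 76 cells held 124299 UMIs, with a median of 1403 UMIs (748 to 5741) and 621 genes per cell. The other CD3-transcript cells had a median of 1301 UMIs and the CD8-negative cells of 1217. Mitochondrial genes gave 3.36% of UMIs in CD8-transcript T cells and 2.99% in the other CD3-transcript cells. Ribosomal protein genes gave 32.1% in CD8-transcript T cells and 28.9% in the other CD3-transcript cells. The libraries shared 3 barcodes, none of them a CD8-transcript T cell. Levels are given as CPM, the UMIs of a gene in a group after the group's sum was scaled to 1000000. Cells of 1 library are not replicates, so no difference has a test, and all intervals are exact 95% intervals that cover counting error only. In a summed level, fewer cells with the transcript and less transcript per cell cannot be told apart, so the number of cells with a UMI stands beside it.

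The cells were first checked against the markers proposed for them. Cd8a had a UMI in 44 of 76 cells (0 to 5 per cell, median 1), Cd8b1 in 63 (0 to 11, median 2) and Cd3d in 61 (0 to 7, median 2). These 3 genes belong to the rule and describe the choice only. Ccl5, the chemokine that memory CD8 T cells store as message, had a UMI in 75 cells. Ly6c2, which encodes a surface protein of memory CD8 T cells and monocytes, had one in 40. The end of its transcripts shares 51.9% of its 31-base words with Ly6c1, so reads of these genes could be split, and Ly6c1 had 0 UMIs in these cells. Klra7, which encodes a Ly49 receptor of NK cells and some CD8 T cells, went against the label. It had 0 UMIs in all 76 cells, which by the limit of 3 counts for a count of 0 allows a share of up to 3.95% of cells with a UMI, while 83 of the other 669 cells had one. The end of its transcripts shares 39.1% of its 31-base words with Klra13-ps and Klra4, so its reads too could be split. The name CD8-transcript T cells is used for the rule alone, without Klra7.

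Both CD8 chains were detected in 31 cells, Cd8a alone in 13 and Cd8b1 alone in 32. A chain without a UMI was not detected in that cell. Of the other lineages, 7 of 8 B cell, 8 of 8 hepatocyte, 6 of 6 liver endothelial and 5 of 6 erythroid or platelet markers were at 0 in the CD8-transcript T cells. The 12 phagocyte and dendritic cell markers summed to 748 CPM in CD8-transcript T cells, 5135 CPM in the other CD3-transcript cells and 768 CPM in the CD8-negative cells. Cells with at least 10 UMIs of class II and Cst3 transcripts, 472 in number, had 55726 CPM of these markers and serve below as background cells. Gamma delta T cell genes with a row in the matrix had 1 UMI in CD8-transcript T cells, with 5 of 6 such genes at 0.

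Across the transcriptome, 2886 genes outside the rule had at least 20 UMIs in both groups together and 50 CPM in the higher one. A gene was counted as different when it differed at least 2-fold with 5 CPM added to each level. Of these, 119 genes (4.12%) were higher in CD8-transcript T cells than in the other CD3-transcript cells and 364 (12.6%) were lower. Against the CD8-negative cells, 122 of 2924 genes (4.17%) were higher and 468 (16%) lower. These shares are the background for the counts of list genes below. With so few genes higher, the lack of a higher gene in a short list says little. The median gene stood at -0.15 on the log2 scale against the other CD3-transcript cells and at -0.24 against the CD8-negative cells. Among genes with at least 100 CPM in the higher group and 30 UMIs in both groups together, those furthest up were Gzma, Sidt1, Nubp1, S100a4, Il18rap, S1pr1, Lgals1, Ccl4, Il18r1, Capg, Klhl6 and Lgals3. Those furthest down were Klra7, Ckb, Podnl1, H2-Eb1, Plbd1, H2-Aa, Lyz2, Maf, Adam19, Rin3, Xcl1 and Cd74. The class II genes H2-Eb1, H2-Aa and Cd74 and the phagocyte genes Lyz2 and Plbd1 are known from the cell types whose transcripts the rule set to 0, so their low levels are not independent of that choice. Against the CD8-negative cells, chosen by the same 0, H2-Aa and Cd74 had ratios of 1.19 and 1.66. A stricter filter, of 1000 genes or more and up to 5% mitochondrial UMIs, left 4 of the 76 cells, and Sidt1, Ly6c2 and Il2rb then changed sign.

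**Figure D1:**
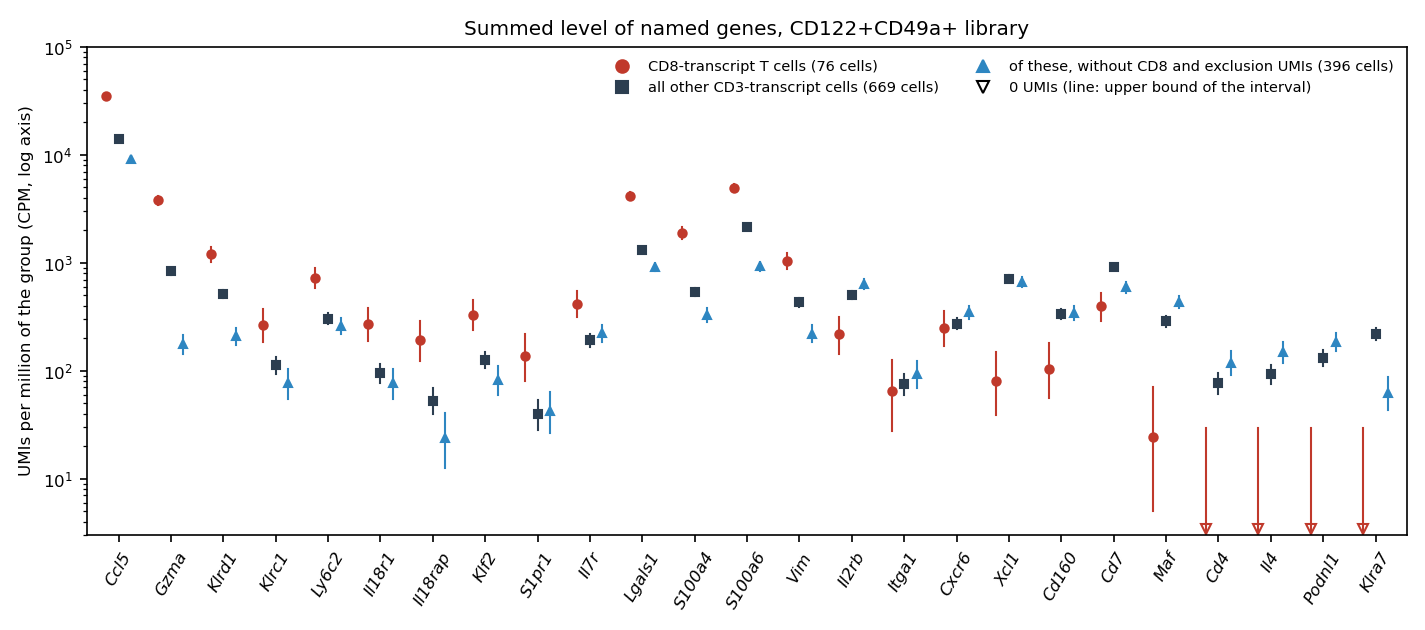
Summed level of 25 named genes in the CD122+CD49a+ library, in CPM (log axis). Circles are the 76 CD8-transcript T cells, squares the other 669 CD3-transcript cells, triangles the 396 CD8-negative cells, lines exact 95% counting intervals, and open triangles stand for 0 UMIs. Gzma stands at 3797 CPM in CD8-transcript T cells and at 175 CPM in the CD8-negative cells, while Cd4, Il4, Podnl1 and Klra7 have no UMI in CD8-transcript T cells.

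Gzma and Ccl5 were higher than in both groups of comparison cells. Gzma, a granule protease of killer lymphocytes, had 3797 CPM (3462 to 4156) in CD8-transcript T cells, 831 CPM in the other CD3-transcript cells and 175 CPM in the CD8-negative cells. That is 4.57-fold (4.07 to 5.12) above the other CD3-transcript cells and 21.7-fold above the CD8-negative cells. The transcript was uneven among the cells. It had a UMI in 30 of 76 cells (39.5%), with 0 to 60 UMIs per cell, 10 or more in 15 cells, and 49.8% of all its UMIs in 5 cells. Among the other CD3-transcript cells 11.8% had a UMI, among the CD8-negative cells 3.79%, and among the background cells, at a median of 2277 UMIs, 1.48%. With every cell thinned to 1000 UMIs these shares were 37.1% in CD8-transcript T cells, 11.1% in the other CD3-transcript cells, 2.93% in CD8-negative cells and 1.18% in background cells.

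The promoter window of Gzma is shown because this gene led the ranking, with motif matches on either strand in capitals. The RUNX motif was searched as the letters TGTGGT. The T-box motif, of a family that includes T-bet and Eomes, was searched as the letters GGTGTGA, and the matches did not overlap in the windows printed. RUNX and T-box factors are known regulators of CD8 effector genes. The windows run from 250 bases before to 50 after the RefSeq gene start and are written 5′ to 3′ on the gene's strand. That of Gzma lies at chr13:113100932-113101231 (GRCm38.p6, minus strand) and holds 1 RUNX match, which starts at position -50 from the gene start.
Gzma: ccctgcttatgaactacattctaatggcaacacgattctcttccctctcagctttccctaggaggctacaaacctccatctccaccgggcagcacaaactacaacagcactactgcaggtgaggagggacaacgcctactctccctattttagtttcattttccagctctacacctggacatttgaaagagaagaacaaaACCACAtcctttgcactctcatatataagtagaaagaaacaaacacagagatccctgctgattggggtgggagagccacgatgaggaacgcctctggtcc
Among the 12 genes furthest up, 9 had a window in RefSeq, 11 windows in all. RUNX letters stood in 3 of these windows, in 3 genes, and T-box letters in 1. Among the 12 furthest down, 9 had a window, 13 windows in all, with RUNX letters in 3 windows, in 3 genes, and T-box letters in 2. Of all 32851 windows, 16.8% held the RUNX letters and 3.98% the T-box letters. The windows printed in this report all hold a RUNX match. Of windows searched but not printed, those of Ly6c2 and a window of Il18r1 held one. The other windows of Il18r1 and those of Cd8a, Ckb and Klra7 held none. A match is a run of letters and was not measured as a binding site.

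Ccl5 had 0 to 142 UMIs per cell, a median of 55, and 10 or more UMIs in 70 cells. Its level was 35262 CPM in CD8-transcript T cells, 13918 CPM in the other CD3-transcript cells and 9183 CPM in the CD8-negative cells, a ratio of 2.53 (2.45 to 2.62) to the other CD3-transcript cells. The CC chemokine Ccl4 had 201 CPM in CD8-transcript T cells (16 cells), 63.3 CPM in the other CD3-transcript cells and 16.4 CPM in the CD8-negative cells. Of 14 cytotoxic granule genes, 11 could be compared with the other CD3-transcript cells. Of these, 2 were at least 2-fold higher and 1 lower, with a median of 0.47 on the log2 scale. Over all genes 4.12% were higher and 12.6% lower, so 1 lower gene of 11 is near that share. Gzmk, a granzyme of memory CD8 T cells, was the second higher gene, with 9 UMIs in 7 cells, 72.4 CPM against 11.5 CPM in the other CD3-transcript cells, a ratio of 6.29 (2.34 to 16.3). The lower one was the death ligand gene Fasl, with 24.1 CPM in CD8-transcript T cells and 74.8 CPM in the other CD3-transcript cells. Nkg7, a granule membrane protein, had 2566 CPM in 70 cells of the CD8-transcript T cells and 1765 CPM in the other CD3-transcript cells. Gzmb had 249 CPM in CD8-transcript T cells, 430.5 CPM in the other CD3-transcript cells and 222 CPM in the CD8-negative cells, within 2-fold of both. The perforin gene Prf1 had 1 UMI in CD8-transcript T cells and 11.5 CPM in the other CD3-transcript cells, too few to compare.

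Klrd1, Klrc1 and Klrg1 were higher than in the other CD3-transcript cells, while Klrb1c, Klrb1f and the Ly49 genes that could be compared were lower. Klrd1 encodes CD94, which pairs with NKG2A (Klrc1) or NKG2C (Klrc2) to read Qa-1. Its level was 1207 CPM in CD8-transcript T cells (46 cells, 0 to 10 UMIs), 511 CPM in the other CD3-transcript cells and 208 CPM in the CD8-negative cells, a ratio of 2.36 (1.96 to 2.84) to the other CD3-transcript cells. Background cells had 205 CPM of Klrd1. Klrc1 had 265.5 CPM in CD8-transcript T cells, 112 CPM in the other CD3-transcript cells and 76.6 CPM in the CD8-negative cells. Klrd1 and Klrc1 were found in the same cell in 16 of 76 CD8-transcript T cells and in 12 of 396 CD8-negative cells. Klrk1, which encodes the activating receptor NKG2D, had 483 CPM in CD8-transcript T cells, 311 CPM in the other CD3-transcript cells and 170 CPM in the CD8-negative cells, so its ratio was under 2 to the first and 2.85 to the second. Klrg1, a marker of terminal effector cells, had 10 UMIs in 7 cells and a ratio of 3.11 (1.34 to 6.63) to the other CD3-transcript cells, and of 2.01 to the CD8-negative cells, which was under 2-fold with 5 CPM added.

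The NKR-P1 genes Klrb1c, which encodes the NK1.1 antigen, and Klrb1f lay on the low side. Klrb1c had 2 UMIs in CD8-transcript T cells against 123 CPM in the other CD3-transcript cells, a ratio of 0.131 (0.0157 to 0.483). Of 8 genes of this receptor group that could be compared with the other CD3-transcript cells, 3 were higher and 2 lower. Of 11 Ly49 genes, 8 were at 0 in CD8-transcript T cells, and all 3 that could be compared with the other CD3-transcript cells were lower, of which Klra7 and Klra1 had 0 UMIs and Klra3 had 1. A Ly49 UMI was found in 3 of 76 CD8-transcript T cells (3.95%, 0.822 to 11.1), 148 of the other 669 CD3-transcript cells (22.1%) and 36 of 396 CD8-negative cells (9.09%). Background cells had such a UMI in 10.6% of cells, but at a higher depth, so these shares cannot be set against each other directly. Scaled to CPM, the Ly49 genes summed to 40.2 CPM (13.1 to 93.9) in CD8-transcript T cells. The CD8-negative cells had 149.5 CPM of them and the background cells 62.9 CPM. Tyrobp, the adaptor of activating Ly49 receptors, was set to 0 by the rule in CD8-transcript T cells. With exclusion UMIs allowed, Klra7 stood at 0.25 on the log2 scale against the CD3-transcript cells without CD8 UMIs. Against the CD8-negative cells, chosen by the same 0, it stood at -3.74. The part of the rule in these Ly49 levels was not tested.

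**Figure D2:**
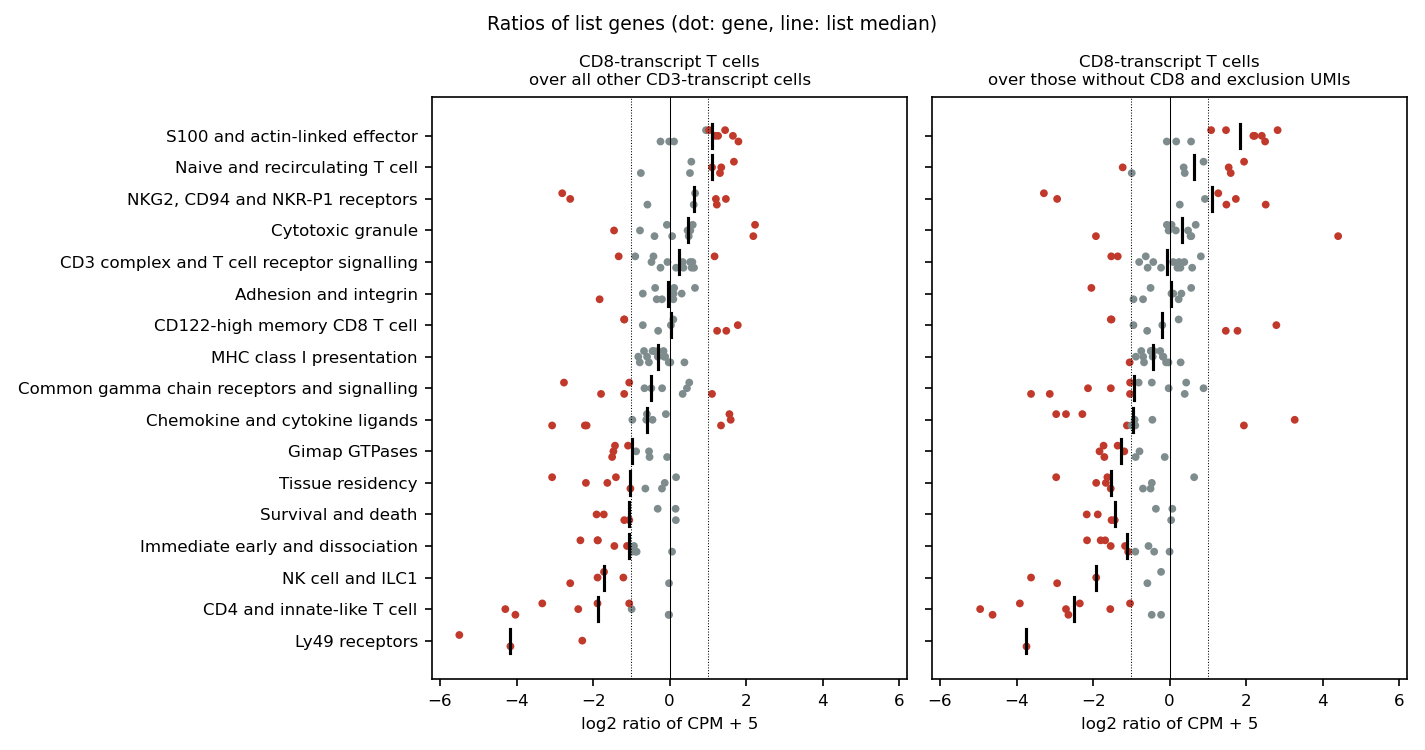
Log2 ratio of each gene of 17 gene lists (dots) and the median of each list (bars), for CD8-transcript T cells over the other 669 CD3-transcript cells (left) and over the 396 CD8-negative cells (right), with 5 CPM added to each level. Red dots differ at least 2-fold, the dotted lines. S100 and actin-linked genes have a median of 1.11 on the left, level with the naive and recirculating genes, and of 1.83 on the right. The places of genes with 0 UMIs depend on the 5 CPM added, and the single Ly49 dot on the right is such a gene, Klra7, at least 2.57-fold lower.

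Of the genes on the list of CD122-high memory CD8 T cells, Ly6c2, Il18r1 and Il18rap were higher, while the list as a whole had a median of 0.03 on the log2 scale against the other CD3-transcript cells and -0.19 against the CD8-negative cells. Il18r1 and Il18rap encode the chains of the interleukin-18 receptor, through which memory CD8 T cells can be driven to make interferon gamma without antigen. Il18r1 had 34 UMIs in 24 cells, or 274 CPM in CD8-transcript T cells, against 94.9 CPM in the other CD3-transcript cells, a ratio of 2.88 (1.89 to 4.29). Il18rap had 24 UMIs in 21 cells, or 193 CPM, against 52.7 CPM in the other CD3-transcript cells, a ratio of 3.66 (2.17 to 6.02), and its ratio to the CD8-negative cells was 8.15. Each cell held few UMIs of either gene, 0 to 3, and both were seen together in 7 cells. Ly6c2 stood at 724 CPM (582 to 890) in CD8-transcript T cells, 304 CPM in the other CD3-transcript cells and 259 CPM in the CD8-negative cells. Of its 12 genes, 9 could be compared with the other CD3-transcript cells. Beside the 3 higher ones, Il2rb and the survival gene Bcl2 were lower, and Cxcr3, Tbx21, Itga4 and Cd44 were within 2-fold. The promoter window of Il18rap, at chr1:40515112-40515411 on the plus strand of GRCm38.p6, is shown because the gene was high against both groups. It holds 1 RUNX match that starts 31 bases after the gene start.
Il18rap: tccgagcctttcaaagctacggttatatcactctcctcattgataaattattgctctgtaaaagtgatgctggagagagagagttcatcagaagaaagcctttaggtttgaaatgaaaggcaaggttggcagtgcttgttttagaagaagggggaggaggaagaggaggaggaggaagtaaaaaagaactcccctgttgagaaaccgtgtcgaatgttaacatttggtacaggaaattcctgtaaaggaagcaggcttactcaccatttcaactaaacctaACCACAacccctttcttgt

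Klf2, the factor that drives S1pr1, had 330 CPM (27 cells, 0 to 4 UMIs) in CD8-transcript T cells, 127 CPM in the other CD3-transcript cells and 82.0 CPM in the CD8-negative cells. Its ratio to the other CD3-transcript cells was 2.61 (1.79 to 3.73). S1pr1 itself had 17 UMIs in 16 cells, 137 CPM in CD8-transcript T cells against 39.3 CPM in the other CD3-transcript cells, a ratio of 3.48 (1.85 to 6.26). S1pr4, a related sphingosine receptor, had 153 CPM in CD8-transcript T cells and 58.5 CPM in the other CD3-transcript cells. Il7r, the interleukin-7 receptor of naive and memory cells, had 418 CPM in CD8-transcript T cells (27 cells, 0 to 8 UMIs), 192 CPM in the other CD3-transcript cells and 224 CPM in the CD8-negative cells. It was thus 2.18-fold (1.58 to 2.97) above the first and under 2-fold above the second. Ccr7, a chemokine receptor of lymph node homing, had 1 UMI in CD8-transcript T cells. Of the 13 naive and recirculating genes, 7 could be compared, 4 were higher and none was lower, with a median of 1.11 against -0.15 over all genes. Against the CD8-negative cells, 3 of 8 were higher and 1 lower.

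The list of S100 proteins, galectins and partners of the actin skeleton had a median of 1.11 against the other CD3-transcript cells, level with the naive and recirculating list, and of 1.83 against the CD8-negative cells. Of 11 genes, 10 could be compared, and 6 were at least 2-fold higher and none lower than in the other CD3-transcript cells. Against the CD8-negative cells 7 of 10 were higher. S100a4, a calcium-binding protein of migrating cells, had 1891 CPM (51 cells, 0 to 16 UMIs, median 2) in CD8-transcript T cells, 541 CPM in the other CD3-transcript cells and 332 CPM in the CD8-negative cells. Lgals1, the galectin-1 gene, had 4167 CPM (64 cells, 0 to 52 UMIs, median 3) in CD8-transcript T cells, 1323 CPM in the other CD3-transcript cells and 912 CPM in the CD8-negative cells. The ratio to the other CD3-transcript cells was 3.50 (2.99 to 4.08) for S100a4 and 3.15 (2.84 to 3.49) for Lgals1. S100a6, Lgals3, Vim and Crip1 had ratios between 2.04 and 2.76 to the same cells. Background cells also carry these transcripts, with 11318 CPM for the whole list against 23089 CPM in CD8-transcript T cells and 11113 CPM in the other CD3-transcript cells. S100a4 shares 49.2% of its transcript-end words with the predicted gene Gm42674, so its reads could be split.

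Capg, an actin-capping protein, Sidt1 and Klhl6 were also among the 12 furthest up. Capg had 22 UMIs in 14 cells, 177 CPM in CD8-transcript T cells against 60.4 CPM in the other CD3-transcript cells. Klhl6, a B cell gene that T cells also express, had 113 CPM in CD8-transcript T cells against 37.4 CPM in the other CD3-transcript cells, but its log2 ratio was -0.53 when cells were thinned to 1000 UMIs. Sidt1, a transmembrane protein, had 20 UMIs in 15 cells, 161 CPM in CD8-transcript T cells against 31.6 CPM in the other CD3-transcript cells. Nubp1, an assembly factor for iron-sulphur proteins, had 17 UMIs, of which 6 (35.3%) came from 1 cell, so its ratio of 3.86 rests partly on that cell.

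On the low side stood genes of CD4 and innate-like T cells. Cd4 and Il4 had 0 UMIs in CD8-transcript T cells. The CD8-negative cells had 119 CPM of Cd4 and 149.5 CPM of Il4, so these genes were at least 4.91-fold and 6.19-fold lower in CD8-transcript T cells. Maf, a transcription factor of interleukin-4 and interleukin-10 producing T cells, had 3 UMIs in 2 CD8-transcript T cells (24.1 CPM), 288 CPM in the other CD3-transcript cells and 434 CPM in the CD8-negative cells, a ratio of 0.0839 (0.0172 to 0.248) to the other CD3-transcript cells. Zbtb7b, which encodes the ThPOK factor of CD4 cells, had 1 UMI in CD8-transcript T cells and 63.3 CPM in the other CD3-transcript cells. Of 13 genes of this list, 9 could be compared with the other CD3-transcript cells and 6 were lower, none higher, beside 12.6% lower over all genes. Against the CD8-negative cells 8 of 10 were lower, beside 16% over all genes. Summed, the list had 298 CPM in CD8-transcript T cells, 1025 CPM in the other CD3-transcript cells and 1455 CPM in the CD8-negative cells. Gata3 and Rora, factors of type 2 and innate-like cells, did not follow. Gata3 had 80.5 CPM in CD8-transcript T cells and 81.5 CPM in the other CD3-transcript cells, and Rora 72.4 CPM and 73.8 CPM in those groups.

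Of the genes of the sorting antigens, Il2rb was lower and Itga1 was within 2-fold. Il2rb, which encodes CD122, had 27 UMIs in 17 CD8-transcript T cells, 217 CPM (143 to 316), against 501 CPM in the other CD3-transcript cells and 640 CPM in the CD8-negative cells. It was 2.31-fold (1.57 to 3.54) below the other CD3-transcript cells and 2.95-fold below the CD8-negative cells. Itga1, which encodes CD49a, had 64.4 CPM (7 cells) in CD8-transcript T cells and 74.8 CPM in the other CD3-transcript cells, within 2-fold. No CD8-transcript T cell had a UMI of both genes, while 23 of 396 CD8-negative cells did. Of those 396 cells, 207 had Il2rb and 41 had Itga1. The joint counts depend on how often each gene was found and were not tested beyond that. A missing transcript says nothing of the protein on the surface. Of 14 common gamma chain receptor and signalling genes, 11 could be compared, with Il7r higher and Il2rb, Il4ra, Socs1 and Socs2 lower. Socs1 and Socs2, feedback inhibitors of cytokine signals, had 8.04 CPM and 16.1 CPM in CD8-transcript T cells, and 83.4 CPM and 68.1 CPM in the other CD3-transcript cells.

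Of 13 tissue residency genes, 9 could be compared with the other CD3-transcript cells. Xcl1, Cd160, Rgs2, Chn2 and Inpp4b were lower, none was higher, and the median was -1.03. Over all genes 12.6% were lower and 4.12% higher. Xcl1 encodes lymphotactin, which draws cross-presenting dendritic cells. It had 10 UMIs in 8 CD8-transcript T cells (80.5 CPM, 0 to 2 UMIs per cell), against 713 CPM in the other CD3-transcript cells and 662 CPM in the CD8-negative cells. It was 8.87-fold (4.79 to 18.6) lower than in the other CD3-transcript cells and 8.23-fold lower than in the CD8-negative cells. The residency genes Cxcr6 and Cd69 were within 2-fold of the other CD3-transcript cells, at 249 CPM and 145 CPM in CD8-transcript T cells and 273 CPM and 128.5 CPM in those cells. The promoter window of Xcl1, at chr1:164935473-164935772 on the minus strand of GRCm38.p6, is shown as that of the cytokine gene among the 12 furthest down. It holds a RUNX match at position -227 and a T-box match at -188 from the gene start.
Xcl1: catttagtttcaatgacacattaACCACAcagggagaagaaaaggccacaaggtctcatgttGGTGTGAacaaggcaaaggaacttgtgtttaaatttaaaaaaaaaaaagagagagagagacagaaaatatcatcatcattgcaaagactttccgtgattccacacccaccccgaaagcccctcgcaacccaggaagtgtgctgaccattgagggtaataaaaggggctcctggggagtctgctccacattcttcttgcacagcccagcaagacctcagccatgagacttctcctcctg

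Further genes outside these lists were among the 12 furthest down. Ckb, the brain-type creatine kinase, and Podnl1, a secreted matrix protein, had 0 UMIs in CD8-transcript T cells. Ckb had 196.5 CPM in the other CD3-transcript cells and 200.5 CPM in the CD8-negative cells. Podnl1 had 130.4 CPM and 186 CPM in those cells, so Ckb was at least 8.14-fold and Podnl1 at least 5.40-fold lower in CD8-transcript T cells than in the other CD3-transcript cells. Adam19, a membrane protease, and Rin3, a Rab5 regulator, had 1 UMI each in CD8-transcript T cells, against 110 CPM and 105.5 CPM in the other CD3-transcript cells. Of the 8 Gimap genes, small GTPases of lymphocyte survival, 4 were lower than in the other CD3-transcript cells and 5 lower than in the CD8-negative cells, none higher. Gimap4 had 306 CPM (27 cells) in CD8-transcript T cells, 831 CPM in the other CD3-transcript cells and 1023 CPM in the CD8-negative cells. Of 7 survival and death genes, Bcl2, Bcl2l11, Bcl2a1b and Bcl2a1d were lower and none was higher. Over all genes, 12.6% were lower and 4.12% higher than in the other CD3-transcript cells, and 16% lower than in the CD8-negative cells. Of 15 genes of MHC class I presentation, none differed 2-fold from the other CD3-transcript cells.

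Immediate early and heat shock genes, which rise when tissue is dissociated, were low too. Of 10 that could be compared, 5 were lower than in the other CD3-transcript cells and none higher, beside 12.6% lower over all genes. The summed list had 1818 CPM in CD8-transcript T cells, 3878 CPM in the other CD3-transcript cells and 3768 CPM in the CD8-negative cells. Jun had 80.5 CPM in CD8-transcript T cells and 309 CPM in the other CD3-transcript cells, and Hspa1a 64.4 CPM and 344 CPM in those groups. These levels moved with the lower gene groups above, and their part in them was not tested.

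Several of these genes had other levels in the 48 CD8-positive cells that the rule left out for their exclusion UMIs. These cells were split, after their values had been seen, into 18 cells with 1 exclusion UMI and 30 cells with 2 or more. Cd8b1 had 1207 CPM in CD8-transcript T cells, 1177 CPM in cells with 1 exclusion UMI and 198 CPM in cells with 2 or more, while Cd8a had 555 CPM, 356 CPM and 667 CPM along the same series. Klra7 had 0 UMIs in CD8-transcript T cells, 0 UMIs in cells with 1 exclusion UMI and 884 CPM, in 15 of 30 cells, in those with 2 or more. Cd7, an early T and NK cell surface protein, had 394 CPM in CD8-transcript T cells, 164 CPM with 1 exclusion UMI and 1947 CPM with 2 or more. Xcl1 had 80.5 CPM, 246 CPM and 920 CPM in that order of exclusion UMIs. In the opposite direction, Ly6c2 had 724 CPM, 876 CPM and 90.2 CPM, and Il18r1 had 274 CPM, 301 CPM and 36.1 CPM. Other genes did not separate the cells this way. Klrd1 had 1207 CPM, 1149 CPM and 1154 CPM along the series, Ccl5 35262 CPM, 31418 CPM and 30348 CPM, and S100a6 4924 CPM, 6021 CPM and 4995 CPM. The CD8 genes belong to the rule, and Cd8b1 was found in 5 of the 30 cells with 2 or more exclusion UMIs and Cd8a in 26. The exclusion gene differed too. The 14 cells with H2-Ab1 only had 1124 CPM of Cd8b1, 496 CPM of Ly6c2 and 0 UMIs of Klra7. The 28 cells with Fcer1g had 157 CPM, 137 CPM and 962 CPM of these genes. Of the 30 cells with 2 or more, 9 held 142 UMIs of the class II gene Cd74, 2561 CPM. Whether these levels go with the number or the kind of exclusion UMIs was not tested.

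**Figure D3:**
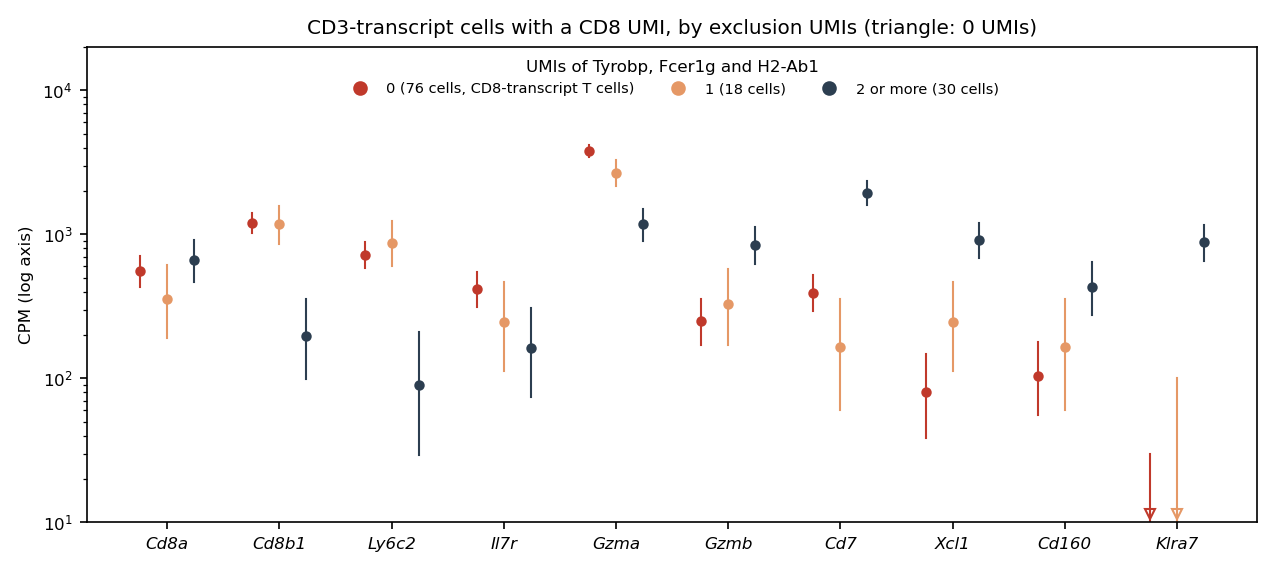
Summed level in CPM (log axis) of 10 genes in CD3-transcript cells with a CD8 UMI, by their UMIs of Tyrobp, Fcer1g and H2-Ab1, namely 0 (the 76 CD8-transcript T cells), 1 (18 cells) and 2 or more (30 cells). Lines are exact 95% counting intervals and open triangles 0 UMIs. Cd8b1 and Ly6c2 are low, and Klra7, Cd7 and Xcl1 high, in cells with 2 or more.

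The gene limit of the rule also left cells out. Without the filters on cells, 99 barcodes of the library met the transcript rule, and 23 of them were lost to the filters. The 18 CD8-transcript T cells with 500 genes or more but fewer than 550 had 1541 CPM of Cd8b1, 2485 CPM of Gzma and 55360 CPM of Ccl5. The 12 cells just outside, with 450 genes or more but fewer than 500, had 1468 CPM of Cd8b1, 3800 CPM of Gzma and 58382 CPM of Ccl5, and 1 of them held 3 UMIs of Klra7. On the CD8 side, 24 CD8-transcript T cells had 1 CD8 UMI and 52 had 2 or more.

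The cells were not uniform. Dividing them by a Gzma UMI, a split chosen after the values were seen, gave 30 cells with one (median 1477 UMIs) and 46 without (median 1382). Cd8a and Cd8b1 differed little between these cells, with ratios of 0.968 and 0.932. Some other effector genes were higher in cells with Gzma. Gzmb had 457 CPM in cells with Gzma and 74.1 CPM in cells without, a ratio of 6.17 (2.33 to 20.6). Lgals1 had 6877 CPM and 1883 CPM in those cells, a ratio of 3.65 (2.98 to 4.50). Klrg1 had a UMI in 7 cells with Gzma and in 0 without, Gzmk in 6 and 1, the fractalkine receptor gene Cx3cr1 in 6 and 1, and S1pr5 in 3 and 0. Klrd1 and Klf2 were higher in cells with Gzma, with ratios of 1.99 and 2.06. Further effector genes differed less than 2-fold, with ratios of 1.78 (0.748 to 4.43) for Ccl4, 1.56 for Nkg7 and 0.791 for Klrk1. Of the 76 cells, 8 had 2 or more UMIs of proliferation genes, at a median of 2214.5 UMIs, and 5 of these had Gzma. They held 172 of 472 Gzma UMIs, 189 of 518 Lgals1 UMIs and 12 of 31 Gzmb UMIs. Jund, Junb and Hspa1b were 3.69-fold, 2.02-fold and 2.44-fold lower in cells with Gzma, and Ier2 was 2.49-fold higher. The part of cell division, depth and dissociation genes in this split was not tested.

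Il7r, Cxcr6, Ltb and Tcf7 were higher in cells without Gzma, while other memory and residency genes differed less. Il7r had 123 CPM in cells with Gzma and 667 CPM in cells without, 5.42-fold (2.43 to 14.2) lower in the first. Cxcr6, a receptor that helps keep T cells in liver sinusoids, had 87.9 CPM in cells with Gzma and 385.5 CPM without. Ltb, the lymphotoxin beta gene, had 193.5 CPM in cells with Gzma and 727 CPM without. Tcf7, a factor of memory and stem-like T cells, had a UMI in 2 cells with Gzma and in 11 without. The residency gene Cd160 had 87.9 CPM in cells with Gzma and 119 CPM without. Ly6c2 had a ratio of 0.687 (0.433 to 1.07) of cells with Gzma over those without, and Il18r1 of 1.70 (0.814 to 3.63). Gzma and Il7r were found together in 6 cells. Ccl5 was abundant in both, with 39274 CPM in cells with Gzma and 31879 CPM without. By CD8 chain, Gzma had a UMI in 14 of the 31 cells with both chains, 3 of the 13 with Cd8a alone and 13 of the 32 with Cd8b1 alone.

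**Figure D4:**
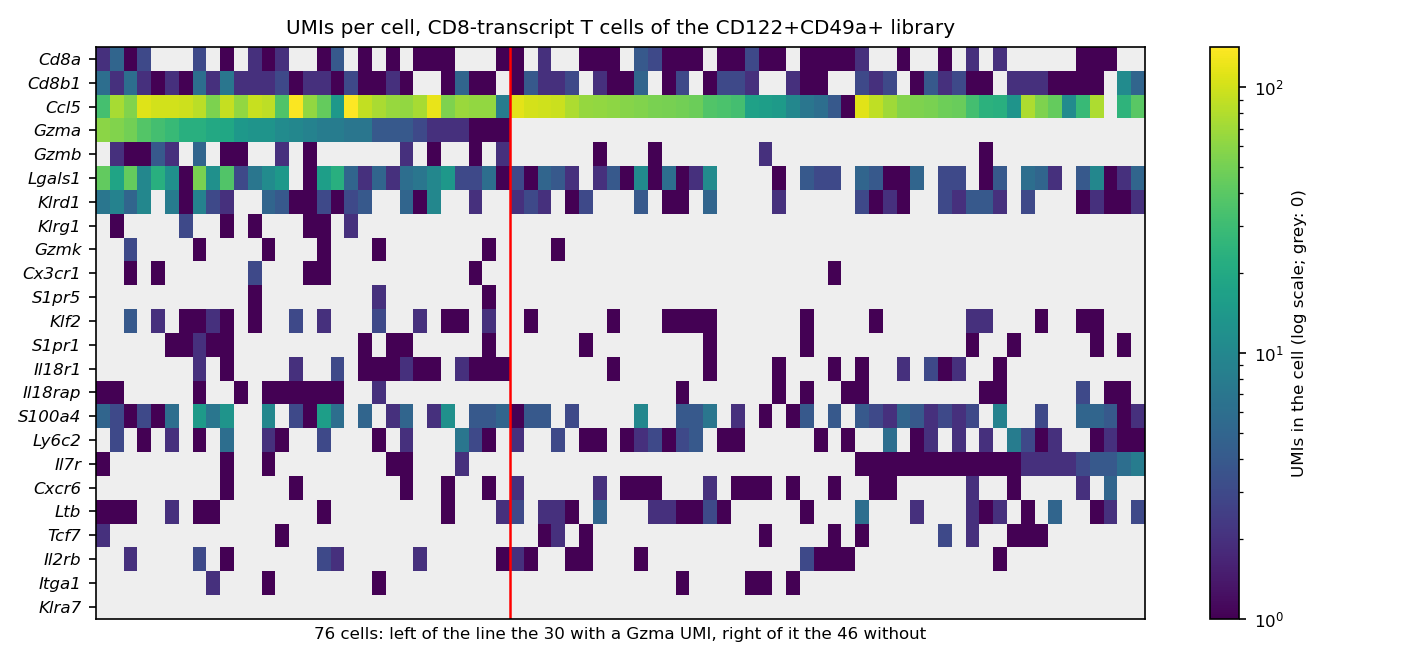
UMIs per cell of 24 genes (rows) in the 76 CD8-transcript T cells (columns), on a log colour scale with grey for 0. Columns left of the red line are the 30 cells with a Gzma UMI, sorted by that count, and columns right of it the 46 without, sorted by Il7r. Gzmb, Klrg1 and Cx3cr1 UMIs lie mostly on the left, Il7r, Cxcr6 and Ltb UMIs mostly on the right, and Klra7 is empty.

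When all 745 CD3-transcript cells were clustered without the 8 genes of the rule, the CD8-transcript T cells did not spread evenly over the 7 clusters. The third cluster, with 108 cells and led by Lgals3, Gzma, S100a4, Pycard and Ccl5, held 46 of them (60.5%, 48.7 to 71.6). It also held 15 of the 18 CD8-positive cells with 1 exclusion UMI, and 23 each of the cells with and without Gzma. The fourth cluster, led by Il7r, Il18r1 and Ikzf2, held 13 CD8-transcript T cells (17.1%), 12 of them without Gzma. A cluster of 26 cells led by histone genes and Top2a, genes of dividing cells, held 6, of which 5 had Gzma. The fifth cluster, led by Gzmb, Ccl4, Lat2, Klra3, Cd7 and Klra7, held no CD8-transcript T cell but 9 of the 30 CD8-positive cells with 2 or more exclusion UMIs. A sixth, led by class II genes, held none either. Leading genes define a cluster and are no result about it.

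The same transcript rule was applied to the LSM library, which the choice of the 76 cells did not use. It gave 40 of 116 CD3-transcript cells (34.5%, 25.9 to 43.9), with a median of 2143 UMIs, and 26 CD8-negative cells. The share in the CD122+CD49a+ library was 10.2%, and the part of the gates and of depth in this difference was not tested. In the LSM library 980 genes could be compared between CD8-transcript T cells and CD8-negative cells, and 68 (6.94%) were higher and 71 (7.24%) lower. Of the 122 genes higher in CD8-transcript T cells of the CD122+CD49a+ library, 40 could be compared in the LSM library. Of these, 12 (30%) were at least 2-fold higher there too, and 5 at least 2-fold lower. Among all genes that could be compared in both libraries, 6.61% were that much higher in the LSM library, and the 12 were 18.8% of them. Of the 468 lower genes, 58 could be compared and 4 (6.90%) were also lower in the LSM library. Of all such genes 7.03% were, so by count the lower genes that could be compared did not recur above the background. The summed CD4 and innate-like list was low there too, with 8 UMIs (91.9 CPM) in CD8-transcript T cells and 101 UMIs (1372 CPM) in CD8-negative cells. Only 1 gene of that list could be compared there. The tissue residency list was not low, with 1310 CPM and 1127 CPM in those LSM cells.

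Gzma, Ccl5, Klrd1, Ccl4 and Klf2 were higher than in the CD8-negative cells in the LSM library as well. Gzma had 11216 CPM in 34 of 40 LSM CD8-transcript T cells and 584 CPM in the LSM CD8-negative cells, a ratio of 19.2 (14.1 to 26.7). Ccl5 had a ratio of 7.61 (6.93 to 8.38), Klrd1 of 7.08 (3.78 to 14.7), Ccl4 of 18.4 (9.14 to 43.3) and Klf2 of 2.64 (1.85 to 3.83) between the same LSM cells. Of the naive and recirculating genes only 2 could be compared in the LSM library, with 1 higher, 1 lower and a median of -0.51 on the log2 scale. The receptor genes Klrd1, Klrc1, Klrk1, Klre1 and Klrg1, all 5 of their list that could be compared, were higher there, while 4 of 8 were higher and 2 lower against the CD8-negative cells of the CD122+CD49a+ library. Of the cytotoxic granule genes, 5 of 7 were higher in the LSM library, while in the CD122+CD49a+ library Gzma was the 1 higher gene and Fasl the 1 lower gene of 10. The S100 and actin-linked genes did not recur. Of 10, 1 was higher and 1 lower in the LSM library, where S100a4 had 1092 CPM in CD8-transcript T cells and 1344 CPM in CD8-negative cells. Klra7 had 0 UMIs in the LSM CD8-transcript T cells, but 4 of these 40 cells (10.0%, 2.79 to 23.7) had a UMI of another Ly49 gene, against 0 of the 26 LSM CD8-negative cells, which allows a share of up to 11.5%. Background cells of the LSM library had a Ly49 UMI in 12.9% of cells, but at a median of 5379.5 UMIs. The LSM CD8-transcript T cells had a median of 2142.5 UMIs and the LSM CD8-negative cells of 2570, so these shares are not at equal depth. The lower Ly49 share of the CD122+CD49a+ library was not seen in the LSM library.

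Set side by side, the CD8-transcript T cells of the gates differed in several of these genes. Gzma had 3797 CPM in those of the CD122+CD49a+ library and 11216 CPM in those of the LSM library, 2.95-fold (2.64 to 3.30) lower in the first. Ccl4 had 201 CPM in the CD122+CD49a+ library and 2000 CPM in the LSM library, Klf2 330 CPM and 1505 CPM, and the interferon gamma gene Ifng 129 CPM and 735.5 CPM. Il7r went the other way, with 418 CPM in the CD122+CD49a+ library and 57.5 CPM in the LSM library, a ratio of 7.28 (2.93 to 23.4). Il2rb had 217 CPM in the CD122+CD49a+ library and 1 UMI, 11.5 CPM, in the LSM library. Klrd1, Klrk1 and Lgals1 had ratios of 1.14, 1.02 and 1.12 between these cells. Immediate early genes also differed, with 1818 CPM in the CD122+CD49a+ library and 6619 CPM in the LSM library, and their part in these differences was not tested. With 1 library per gate, gate and library cannot be told apart.

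**Figure D5:**
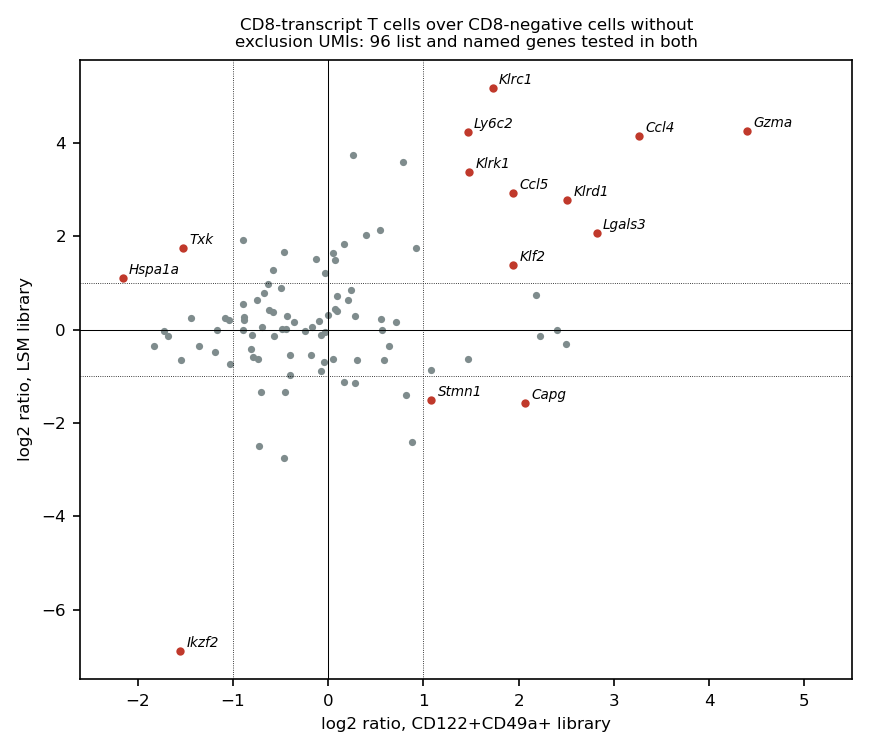
Log2 ratio of CD8-transcript T cells over CD8-negative cells in the CD122+CD49a+ library (x axis) and in the LSM library (y axis), for 96 list and named genes that could be compared in both. The dotted lines mark 2-fold, and the 14 red, named genes are past it in both libraries, 10 with the same sign and 4 with opposite signs. Gzma, Ccl4, Klrd1, Ccl5 and Lgals3 are high in both.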

How the data were processed

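Cells of the gates were profiled by droplet single-cell RNA sequencing (10x Genomics), with 1 library per gate. The deposited matrices hold raw UMI counts per gene and barcode, which the authors had not normalised, and their headers give software version 3.0.1. Per the submitters' processing notes, STAR and Seurat 2.3.0 were used and the build was GRCm38. The calling of barcodes and the use of strand are not given in the sources used here. Both matrices list 27998 genes, of which 27645 had a position in GENCODE M21.

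In the CD122+CD49a+ library, 398 of 1655 barcodes had too few genes and 9 too many mitochondrial UMIs. Doublets were kept, and Scrublet in scanpy 1.11.5 was an alternative. Counts were summed per group and scaled to CPM, with exact Poisson intervals for levels, exact conditional intervals for ratios and Clopper-Pearson intervals for shares (scipy 1.17.1), which cover counting error only. A count of 0 was set at 3 counts for a fold, or 24.1 CPM in the CD8-transcript T cells. The 8 genes of the rule were left out of all counts of genes. Genes were named by rule, the 12 with the largest and the 12 with the smallest ratio among genes with at least 100 CPM in the higher group and 30 UMIs in both, plus members of 29 gene lists (311 genes, 6 without a row in the matrix). The ranking passed over immunoglobulin and T cell receptor segments, mitochondrial and ribosomal protein genes, and predicted genes known by number. The cells and the lists were chosen with earlier results of these data known.

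CD3-transcript cells were scaled to 10000 counts, log-transformed and reduced from 2000 variable genes to 20 principal components, and a graph of 15 neighbours was clustered by Leiden partition at resolution 0.6 (leidenalg 0.10.2). Promoter windows came from RefSeq on GRCm38.p6. TMM factors came from edgeR 4.0.16 in R 4.3.3. The fold calls and ratio intervals were tested on simulated group sums with Poisson counting error only. Such sums do not hold the uneven spread of a transcript over cells. Clustering, thinning, doublet and motif steps were not simulated.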

Additional observations from a re-analysis of the deposited data

Results flagged for a closer look

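Among the genes of the lists and the named genes, 4 stood at least 2-fold from the CD8-negative cells in both libraries but with opposite signs. The difference between the libraries was not tested, since each gate has 1 library. Capg, an actin-capping protein, had a log2 ratio of CD8-transcript T cells over CD8-negative cells of 2.072 in the CD122+CD49a+ library and -1.578 in the LSM library. Txk, a T cell receptor kinase, had -1.525 in the CD122+CD49a+ library and 1.757 in the LSM library. The heat shock gene Hspa1a had -2.158 in the CD122+CD49a+ library and 1.109 in the LSM library. Stmn1, a tubulin-binding protein of dividing cells, had 1.085 in the CD122+CD49a+ library and -1.5 in the LSM library. These 4 are set beside 10 genes that were past 2-fold with the same sign in both.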

How the results depend on the processing

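The share of 10.2% became 6.349% with 1000 genes or more and up to 5% mitochondrial UMIs (4 CD8-transcript T cells), 6.980% with 2 or more CD8 UMIs, 16.64% with exclusion genes allowed and, in an alternative chosen after seeing the data, 12.62% with up to 1 exclusion UMI. The count of 119 higher genes became 184 with 2 or more CD8 UMIs, 75 with exclusion genes allowed, 69 with a pseudocount of 20 CPM and 587 with no minimum level. The count of 364 lower genes became 561 with cells thinned to 1000 UMIs and 2558 with no minimum level. Thinned cells gave 130 higher genes, of which 41 were among the 119. For this alternative the transcript rule was applied again to the thinned counts of cells with at least 1000 UMIs. It gave 65 CD8-transcript T cells and 492 comparison cells, so both depth and the groups changed. TMM scaling gave 149 higher and 311 lower genes and moved the median gene by 0.09 on the log2 scale. The stricter cell filter turned Sidt1 to -1.501, Ly6c2 to -2.671 and Il2rb to 0.5748 on the log2 scale. Thinning turned Klhl6 to -0.5328, allowing exclusion genes turned Klra7 to 0.2455, and CD8-negative cells as the comparison turned H2-Aa to 0.2266 and Cd74 to 0.7114. The cause of these changes was not tested, except that fewer cells or more genes entered by construction. At Leiden resolution 0.3, 85.53% of CD8-transcript T cells lay in 1 cluster, and at 1.0 60.53% did. Of 70 gene and list ratios, removing 22 doublet candidates, 1 of them a CD8-transcript T cell, moved none out of its counting interval. Allowing exclusion genes moved 20 of the 70 and reversed the sign of 1. With CD8-negative cells as the comparison, 26 of the 70 moved and 2 reversed. The stricter cell filter moved 33 of 67 and reversed 3. With exclusion genes allowed, Xcl1 went from -3.071 to -1.140 on the log2 scale, and Cd160, at -0.7356, was no longer 2-fold lower. A gene without a UMI in the 76 cells is bounded at 24.1 CPM. No paired analysis was possible because each gate has 1 library.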
